A study of Mus musculus with 8 samples.

Results

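The 10 genes described here belong to the YAP, TAZ and TEAD pathway of mouse cardiac fibroblasts. They are the coactivators Yap1 and Wwtr1 (the gene of TAZ), the transcription factors Tead1 to Tead4, the kinases Lats1 and Lats2, the adaptor Amotl2 and the ankyrin repeat gene Ankrd1. They were chosen by gene symbol, 1 row each of the 54532 genes in the count and FPKM tables. The rule uses no measured value, although earlier results of these data were known when the genes were listed. All 10 passed the filter on low counts that left 14723 genes for testing.

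In the Hippo pathway, a kinase cascade that ends in LATS1 and LATS2 phosphorylates YAP and TAZ, which keeps them out of the nucleus. Unphosphorylated YAP and TAZ bind TEAD factors in the nucleus and drive transcription of targets such as Ctgf, Cyr61 and Ankrd1, and of Lats2 and Amotl2, whose proteins restrain YAP and TAZ in turn. In cardiac fibroblasts the pathway is known for its response to stiff matrix and cell shape and for its part in myofibroblast activation and fibrosis. Its main regulation is by phosphorylation and location of the proteins, which RNA levels do not measure.

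Poly(A) RNA was sequenced from 8 libraries of cardiac fibroblasts of C57BL/6 mice at passage 2. Cells of 4 libraries received the plasmid pAAV.CMV.SV40.THBS4-HA.SV40(polyA), which carries murine Thbs4 with an HA tag and, by its name, a CMV promoter. The gene's product is thrombospondin-4 (TSP-4), a matricellular protein. Cells of the other 4, the controls, received the empty plasmid pAAV-CA, a different construct, so the comparison is between plasmids of which Thbs4 is 1 difference. Both groups then had 12 h in standard medium and 24 h without serum. The libraries carry the letters A to D in each group. The labels give no age or sex of the mice, do not say what the letters mark, and do not say whether each library had its own animal or culture, so p-values here speak of the spread among the 8 libraries alone.

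Depth ran from 17123735 to 22530947 counts per library. The 4 TSP-4 plasmid libraries held 25754 to 38063 Thbs4 counts and the 4 empty plasmid libraries 2 to 11, as their labels have it. Of the 10 fibroblast markers examined, all 10 passed the filter, with Col1a1 at 4557 to 6150 CPM (counts scaled by library total and TMM factor to 1 common size) and Vim at 3519 to 4173 CPM. Cardiomyocyte markers summed to 13.4 to 18.5 CPM, and 12 of 14 lay under 1 CPM in every library, among them Myh6, Myh7, Actc1, Nppa and Nppb. Only Tnnt2, at 11.1 to 16.8 CPM, and Ttn, at 0.413 to 1.30 CPM, passed the filter. All 11 macrophage markers passed it and summed to 317 to 1803 CPM. Epicardial and mesothelial markers passed for 8 of 9, with Krt8 under 1 CPM, and summed to 569 to 1112 CPM. In bulk RNA, fewer cells of a type and less RNA per cell cannot be told apart.

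TEAD factors recognise the DNA core GGAATG, read CATTCC on the other strand. RefSeq promoters of GRCm38.p6 from 250 bases before to 50 after a start site were found for 8 of the 10 genes, in 12 windows. Tead1 and Tead4 were not matched. GGAATG on either strand occurred in windows of 6 of these 8 genes, namely Yap1, Wwtr1, Lats2, Tead3, Amotl2 and Ankrd1, and in 8 of their 12 windows. The 2 windows of Wwtr1 overlap and hold the same core, so windows of 1 gene are not independent. Among all 32851 windows of that length 14.7% held it, a share per window and not per gene. The AP-1 motif TGAGTCA, searched on both strands, occurred in no window of the 8 genes and in 5.2% of all windows, so no matches of the motifs overlapped in these genes. The 250 bases upstream of Ankrd1 and Amotl2 are shown because these are the most abundant of the 10 genes and their letter means differed, with 2 cores in the former and 1 in the latter. The stretches are chr19:36119845-36120094 on the minus strand and chr9:102717554-102717803 on the plus strand, written in the direction of transcription. Capitals mark GGAATG or CATTCC.
Ankrd1: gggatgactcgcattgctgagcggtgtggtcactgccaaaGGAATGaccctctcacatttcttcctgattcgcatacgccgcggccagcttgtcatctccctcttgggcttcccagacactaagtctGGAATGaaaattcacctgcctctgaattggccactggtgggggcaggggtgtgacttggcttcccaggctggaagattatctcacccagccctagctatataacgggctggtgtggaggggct
Amotl2: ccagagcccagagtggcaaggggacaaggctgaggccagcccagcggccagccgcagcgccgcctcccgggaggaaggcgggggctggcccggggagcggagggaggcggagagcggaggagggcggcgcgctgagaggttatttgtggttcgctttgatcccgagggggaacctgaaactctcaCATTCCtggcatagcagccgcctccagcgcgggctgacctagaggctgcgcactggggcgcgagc
In Ankrd1 the cores begin 210 and 123 bases before the start site, both as GGAATG. In Amotl2 the core stands on the opposite strand and its match begins 65 bases before the start site. A match of 6 letters describes the sequence and says nothing of occupancy in these cells.

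Levels per length (FPKM, mean over all 8 libraries) placed Ankrd1 far above the rest. Ankrd1, a cardiac ankyrin repeat protein induced by stretch and injury, averaged 523 FPKM and ranked 50 among the genes tested. Amotl2, a junction scaffold that binds YAP, followed at 101 FPKM. Tead1 at 44.1 and Wwtr1 at 43.0 FPKM came next, and their library ranges overlapped, with Tead1 the higher in 3 of 8 libraries. Yap1 at 21.0 and Lats2 at 19.2 FPKM also overlapped, with Yap1 the higher in 6 of 8. Below them stood Lats1 at 12.0, Tead2 at 7.31, Tead3 at 5.16 and Tead4 at 1.76 FPKM. Every other pair of neighbours in this order kept its order in 8 of 8 libraries, so the ladder has only 2 places where neighbours were not separated by their spread. The step from Ankrd1 to Amotl2 was 5.16-fold and the step from Tead3 to Tead4 was 2.94-fold. These levels depend on the gene lengths used, such as 1765 bases for Ankrd1 and 6289 for Amotl2. In CPM, Ankrd1 averaged 888 and 965 and Amotl2 648 and 632 (TSP-4 and empty plasmid). The CPM ranges of Tead2 and Tead3 overlapped, at 28.8 to 41.6 and 31.5 to 39.3.

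**Figure D1:**
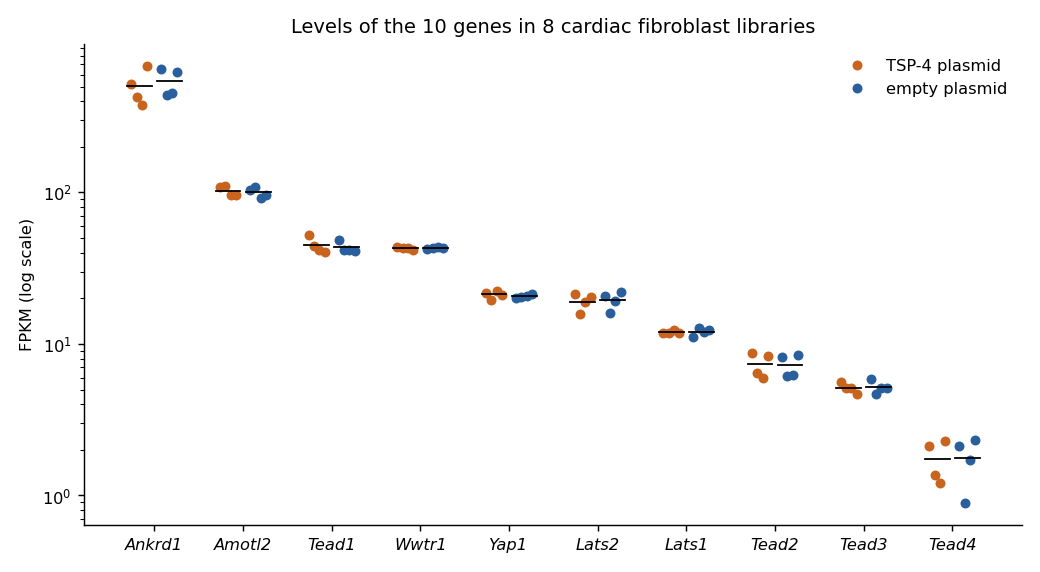
FPKM (log axis) of the 10 genes in each of 8 libraries, ordered by mean. Points are libraries, orange for the TSP-4 plasmid and blue for the empty plasmid, and black bars are group means of 4. Ankrd1 lies highest at 378 to 685 FPKM, Tead4 lowest at 0.891 to 2.34 FPKM, and the groups overlap for every gene.

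Spread between libraries differed widely among the 10 genes. The coefficient of variation of FPKM over 8 libraries was 1.27% for Wwtr1, 3.95% for Lats1 and 4.43% for Yap1. It was 22.6% for Ankrd1 and 31.1% for Tead4. Tead4 rests on 55 to 168 counts per library, while Ankrd1 rests on 11313 to 24623 counts.

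None of the 10 genes passed the test between the plasmids. In edgeR's quasi-likelihood test the adjusted p was 1.00 for each of the 10 genes, 0 of 10 passed, and 0 of 10 had an unadjusted p under 0.05. DESeq2 and limma voom also called 0 of 10 and listed 0 of 10 at that unadjusted level. Over all 14723 genes, edgeR called 1, Thbs4 itself, a background of 0.00679%, and listed 235 at an unadjusted p under 0.05. The CPM values of the groups overlapped for 10 of 10 members, while they did not overlap for 223 genes, or 1.51%. The members' log2 fold changes (TSP-4 over empty plasmid) had a median of -0.01 with 4 of 10 above 0, against a median of -0.00 with 7354 of 14723 above 0 for all genes. The values below give CPM in libraries A, B, C and D of each group. Unless a replicate block is named, SEs and intervals come from the fit without letters and so include the spread between letters. With the letters in the fit as a replicate block, the SE fell from 0.09 to 0.04 for Tead1. It fell from 0.15 to 0.05 for Tead2 and from 0.12 to 0.04 for Lats2. The SEs of the other members fell too, and all 10 intervals with the block included 0.

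Yap1 (ENSMUSG00000053110) lies on chromosome 9 from 7931999 to 8004596, minus strand, in GRCm38. It stood at 201, 182, 209 and 197 CPM in the TSP-4 group and at 187, 192, 193 and 198 CPM in controls. All 8 values lay within a narrow band, and the TSP-4 plasmid libraries held both the lowest and the highest. Between plasmids, the difference on the log2 scale was 0.03 (SE 0.05, 95% interval -0.08 to 0.15), which spans 0.944-fold to 1.11-fold.

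Wwtr1 (ENSMUSG00000027803), on chromosome 3 from 57455649 to 57575910, minus strand, encodes TAZ, the paralogue of YAP. The symbol Taz in the tables is another gene, that of the mitochondrial enzyme tafazzin on chromosome X, at 22.9 to 29.7 CPM. Wwtr1 stood at 208, 207, 207 and 201 CPM in the TSP-4 group and at 203, 207, 209.9 and 207 CPM in controls. No library stood apart. Its log2 fold change was -0.01 (SE 0.04, 95% interval -0.10 to 0.08), the narrowest interval of the 10.

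Per length, Wwtr1 RNA exceeded Yap1 RNA in all 8 libraries. This rests on the gene lengths used for FPKM, 4779 bases for Wwtr1 and 9257 for Yap1. In CPM the genes were close, with Wwtr1 at 206 and 207 and Yap1 at 197 and 193 (TSP-4 and empty plasmid means). In TSP-4 library C Yap1 was the higher, at 209 against 207 CPM. The ratio of their FPKM was 2.01, 2.20, 1.92 and 1.98 in the TSP-4 group and 2.102, 2.091, 2.103 and 2.026 in controls. The means were 2.03 ± 0.124 and 2.08 ± 0.0365 (SD, n = 4 each), and the difference of -0.04 in mean log2 ratio had p = 0.4 in an exact two-sided permutation test, 0.8 after adjustment over the 2 ratios tested. The smallest p this test of 4 against 4 can give is 0.0286. An exact sign-flip test within letters gave p = 0.5, and with 4 letters that test cannot give a p under 0.05. Without TSP-4 library B the difference was -0.08 (exact permutation p = 0.0571), and without TSP-4 library C it was -0.01.

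Among the TEAD factors, which carry the DNA-binding domain that YAP and TAZ lack, Tead1 dominated. Its share of the summed Tead FPKM was 72.2% to 78.2% over the 8 libraries. Tead2 took 11.1% to 14.9%, Tead3 8.14% to 9.46% and Tead4 1.66% to 4.09%. The sum itself was 59.1 ± 6.78 FPKM with the TSP-4 plasmid and 57.6 ± 5.04 FPKM with the empty plasmid (SD, n = 4 each).

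Tead1 (ENSMUSG00000055320, chromosome 7 from 112679318 to 112906807, plus strand) stood at 713, 603, 569 and 554 CPM in the TSP-4 group and at 658, 574, 574 and 562 CPM in controls. Library A was the highest of both groups. The fitted log2 difference was 0.04 (SE 0.09, 95% interval -0.16 to 0.25). Tead2 (ENSMUSG00000030796, chromosome 7 from 45215753 to 45233644, plus strand) stood at 41.6, 31.0, 28.8 and 40.2 CPM against 39.2, 29.8, 30.1 and 40.5 CPM. Libraries A and D were high and B and C low under either plasmid. Its log2 fold change was 0.02 (SE 0.15, 95% interval -0.33 to 0.37).

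Tead3 (ENSMUSG00000002249, chromosome 17 from 28331671 to 28350817, minus strand) stood at 37.7, 34.6, 34.5 and 31.5 CPM against 39.3, 31.6, 34.6 and 34.6 CPM in controls. The fold change on the log2 scale was -0.02 (SE 0.08, 95% interval -0.20 to 0.16). As for Tead1, library A was the highest in each group. Tead4 (ENSMUSG00000030353, chromosome 6 from 128224288 to 128300823, minus strand) stood at 7.58, 4.91, 4.37 and 8.26 CPM against 7.66, 3.24, 6.27 and 8.45 CPM. Its log2 difference of -0.03 had an SE of 0.31 and a 95% interval from -0.74 to 0.68, or 0.599-fold to 1.60-fold. With the letters as a replicate block the SE was 0.15 and the interval ran from -0.34 to 0.30.

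LATS1 and LATS2 are the kinases that phosphorylate YAP and TAZ. Lats1 (ENSMUSG00000040021, chromosome 10 from 7681214 to 7716460, plus strand) stood at 85.8, 86.8, 89.7 and 86.4 CPM in the TSP-4 group and at 80.9, 93.8, 89.0 and 90.0 CPM in controls. Between plasmids, the difference on the log2 scale was -0.02 (SE 0.05, 95% interval -0.14 to 0.10). Lats2 (ENSMUSG00000021959, chromosome 14 from 57689662 to 57758388, minus strand) stood at 148, 110.0, 131 and 143 CPM against 145, 112, 136 and 153 CPM. Library B was its lowest in each group. Its log2 fold change was -0.04 (SE 0.12, 95% interval -0.30 to 0.22).

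The ratio of Lats2 to Lats1 FPKM was 1.80, 1.33, 1.53 and 1.73 with the TSP-4 plasmid and 1.88, 1.25, 1.60 and 1.78 with the empty plasmid. Lats2 exceeded Lats1 per length in all 8 libraries. The means were 1.60 ± 0.212 and 1.63 ± 0.277 (SD, n = 4 each). The difference of -0.02 in mean log2 ratio had an exact permutation p of 0.886, also 0.886 after adjustment. An exact sign-flip test within letters, which cannot give a p under 0.05 here, gave p = 0.625.

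Amotl2 (ENSMUSG00000032531) lies on chromosome 9 from 102716672 to 102733418, plus strand. It stood at 682, 697, 606 and 607 CPM in the TSP-4 group and at 648, 687, 583 and 609.9 CPM in controls. Letters A and B were above C and D in each group. The fitted log2 difference was 0.04 (SE 0.07, 95% interval -0.13 to 0.20).

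Ankrd1 (ENSMUSG00000024803) lies on chromosome 19 from 36111965 to 36119844, minus strand. It stood at 917, 753, 668 and 1214 CPM in the TSP-4 group and at 1157, 785, 804 and 1113 CPM in controls. Libraries A and D were high and B and C low under either plasmid, and Ankrd1 was higher with the TSP-4 plasmid in 1 of 4 letters, D. With all 8 libraries its log2 fold change was -0.12 (SE 0.21), with a 95% interval from -0.60 to 0.36, or 0.659-fold to 1.29-fold. Leaving out 1 library moved it between -0.31 (without TSP-4 library D) and -0.0010 (without TSP-4 library C), and it was -0.02 without control library A. The cardiomyocyte genes Myh6, Myh7, Nppa and Nppb lay under 1 CPM in these same libraries, while Tnnt2 stood at 11.1 to 16.8 CPM.

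Some rows overlap other genes, and the strand setting of the counting is not given in the sources used here. Tead2 overlaps Cd37, a leukocyte tetraspanin gene on the opposite strand with 32 to 164 counts per library, against a mean of 672 for Tead2. Tead1 overlaps the antisense transcript 2310014F06Rik, with 125 to 250 counts, and Lats2 the pseudogene Gm20430, with 17 to 45. Reads of such pairs cannot be told apart without strand.

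The rest of the pathway was also without a call between the plasmids. Of 104 genes on 9 lists of the pathway, 97 were tested, and 0 passed the adjusted threshold in edgeR, DESeq2 or limma voom. In these 3 fits 0 of 97 also had an unadjusted p under 0.05. With the letters as a replicate block, in edgeR, 0 of 97 passed and 12 had an unadjusted p under 0.05, against 1196 of all 14723 genes. The list of YAP/TAZ target genes, which holds Ctgf, Cyr61, Ankrd1, Amotl2 and Lats2, had 10 of 22 fold changes above 0, a median of -0.04 and a range from -0.20 to 0.40.

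Ctgf, the matricellular growth factor most often read as a YAP target, stood at 2258 ± 283 CPM in the TSP-4 group and 2355 ± 409 CPM in controls (SD, n = 4 each), with a log2 fold change of -0.06 (95% interval -0.36 to 0.24). Axl, a receptor tyrosine kinase, stood at 1455 ± 92.9 against 1502 ± 84.8 CPM. Among the targets, edgeR's smallest unadjusted p without letters in the fit were 0.109 for Rbms3, 0.14 for Ccdc80 and 0.17 for Tgfb2. Rbms3 is an RNA-binding protein, Ccdc80 a secreted matrix protein and Tgfb2 a TGF-beta ligand. Rbms3 stood at 59.2 ± 10.6 against 50.1 ± 5.72 CPM, Ccdc80 at 754 ± 146 against 654 ± 47.4 CPM and Tgfb2 at 103 ± 37.1 against 79.2 ± 13.8 CPM. None of the 3 passed the adjusted threshold, and the interval of Tgfb2, from -0.20 to 0.96, is wide. Fitting the replicate block lowered edgeR's unadjusted p to 0.00111 for Rbms3, 0.0231 for Ccdc80 and 0.0390 for Tgfb2. In that fit it was 0.00384 for Igfbp3, 0.0160 for Gadd45a and 0.0389 for Dock5, and no other target lay under 0.05. Without letters, the log2 fold changes of Gadd45a (-0.20) and Dock5 (-0.11) were below 0, the others named here above 0. No target passed after adjustment, where Rbms3 had 0.339.

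**Figure D2:**
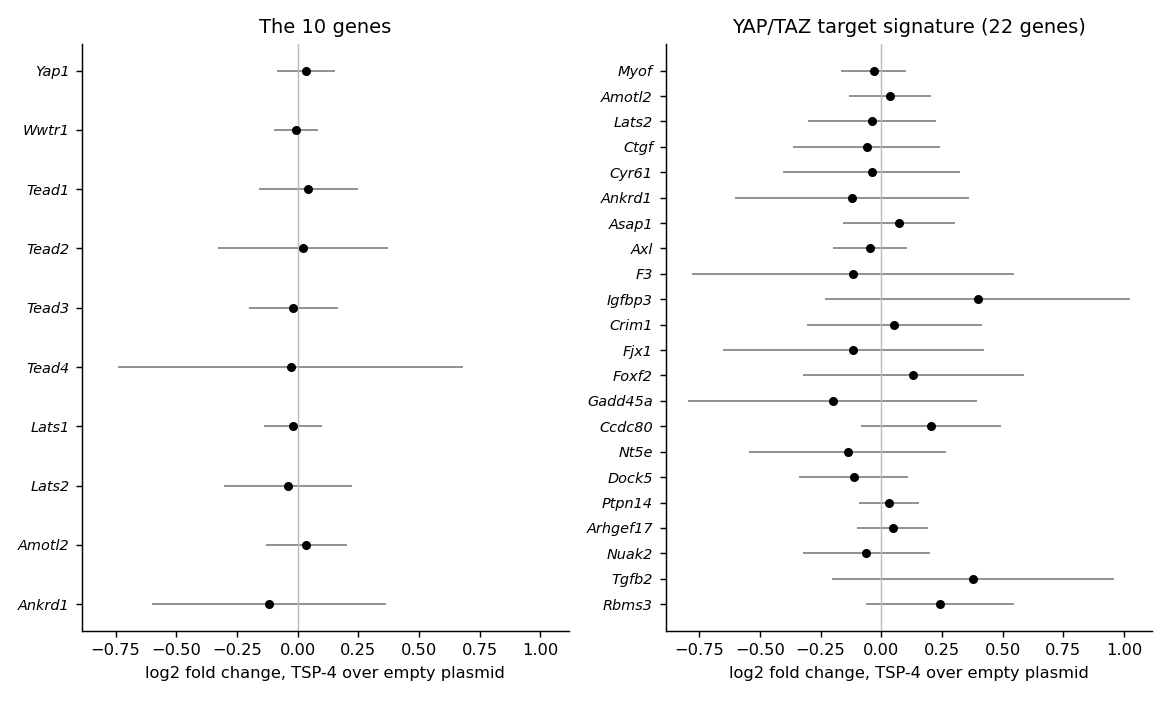
Log2 fold change of TSP-4 over empty plasmid for the 10 genes (left) and for the 22 genes of the YAP/TAZ target list (right). Points are edgeR estimates from 4 against 4 libraries without letters in the fit, and bars are 95% intervals. Every interval includes 0, with the widest of the 10 genes for Tead4, -0.74 to 0.68.

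Upstream of LATS, the kinase cassette had 3 of 7 fold changes above 0 and a median of -0.02. Stk4, the MST1 kinase that activates LATS, stood at 84.2 ± 11.6 against 87.3 ± 11.4 CPM, and the LATS adaptor Mob1a at 230.0 ± 7.60 against 229 ± 8.73 CPM (SD, n = 4 each). The MAP4K and TAO kinases, which act beside MST, had 5 of 10 above 0 and a median of -0.01. The most abundant of them, Map4k4, stood at 666 ± 132 against 711 ± 107 CPM. Map4k1 had the smallest unadjusted p there, 0.0966 in edgeR without letters, at levels under 1 CPM in every library. With the replicate block the smallest in edgeR was that of Map4k4, 0.0211. Membrane and junction regulators had 13 of 20 above 0 and a median of 0.03. Nf2, the merlin tumour suppressor, stood at 115 ± 2.80 against 112 ± 3.51 CPM, Limd1, a LIM protein that binds LATS, at 72.4 ± 3.28 against 68.4 ± 2.51 CPM, and the cadherin Fat1 at 1283 ± 153 against 1242 ± 135 CPM.

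The STRIPAK phosphatase complex, which reverses MST activation, had 5 of 14 above 0 and a median of -0.01. Its most abundant gene, Cttnbp2nl, stood at 327 ± 59.8 against 361 ± 64.9 CPM (SD, n = 4 each). The kinase Stk25 had the smallest unadjusted p, 0.124 in edgeR without letters, at 90.7 ± 4.66 against 85.1 ± 3.89 CPM. With the replicate block the smallest in edgeR was that of Cttnbp2nl, 0.0177. Cofactors of YAP and TEAD had 8 of 10 above 0 and a median of 0.03. Vgll3, which binds TEAD in place of YAP, was the most abundant at 563 ± 72.8 against 536 ± 31.4 CPM. Vgll1 was at 0 counts in all libraries, and Vgll2, Trp63 and Trp73 lay under 1 CPM. Of the ankyrin repeat relatives of Ankrd1, Ankrd2 and Ankrd23 lay under 1 CPM in every library. Targets of MRTF and SRF, a pathway that shares many cytoskeletal targets with YAP, had 8 of 12 above 0 and a median of 0.01, with Acta2, the smooth muscle actin of myofibroblasts, at 1064 ± 380 against 1024 ± 389 CPM.

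By contrast, Ankrd1, Lats2, Amotl2, Tead1, Tead2 and Tead4 differed between the letters A to D. Each letter has 1 library of each plasmid, and edgeR's F test of the 3 letter coefficients, with plasmid in the fit, called 6 of 10 members. On simulated counts this F test made more false calls than its nominal share. The background in the same test was 28.1% of 14723 genes (4134), and 33.4% (3115) of the 9324 genes with a mean of at least 10 CPM, a level chosen after the data were seen. The median span of letter means was 0.26 on the log2 scale for the 10 genes, 0.30 for all genes and 0.21 for those at 10 CPM or more. The members' share called is above both backgrounds, and their median span lies between those of the 2 sets of genes.

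Ankrd1 averaged 1037, 769, 736 and 1164 CPM in letters A, B, C and D (n = 2 each), 1.58-fold from lowest to highest, with an edgeR adjusted p of 0.0094. Its largest difference between plasmids within a letter was 0.33 on the log2 scale, against a span of 0.66 between letter means. Tead4 had the widest span, from 4.07 CPM in B to 8.35 CPM in D, or 2.05-fold (edgeR adjusted p 0.00711), with a within-letter difference of up to 0.60 on the log2 scale. Tead2 averaged 40.4, 30.4, 29.4 and 40.3 CPM, 1.37-fold, with an edgeR adjusted p of 0.000301. These 3 genes were highest in A and D, and so was Lats2.

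Lats2 averaged 146, 111, 134 and 148 CPM, 1.33-fold, with an edgeR adjusted p of 0.000197, the smallest of the 10. Its paralogue Lats1 averaged 83.4, 90.3, 89.3 and 88.2 CPM and was not called (adjusted p 0.438). The ratio of Lats2 to Lats1 FPKM thus averaged 1.84, 1.29, 1.57 and 1.76 in the 4 letters. Without letter B the edgeR adjusted p of Lats2 was 0.137, so its call rests on that letter.

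Tead1 averaged 686, 589, 572 and 558 CPM, 1.23-fold, with an edgeR adjusted p of 0.00193. Letter A alone was high, and without it the edgeR adjusted p was 0.499. Amotl2 averaged 665, 692, 595 and 608 CPM, 1.16-fold, with an edgeR adjusted p of 0.00825. That call did not hold without letter B (0.0584) or without letter C (0.0663). The 6 genes did not share 1 order of letters: 2 were highest in A, 1 in B and 3 in D.

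Yap1, Wwtr1 and Tead3 were not called between letters. Yap1 averaged 194, 187, 201 and 198 CPM (edgeR adjusted p 0.504), and Wwtr1 205, 207, 208 and 204 CPM (0.961), a span of 1.02-fold. Tead3 averaged 38.5, 33.1, 34.6 and 33.0 CPM (0.128), with A highest. With no filter on low counts the edgeR adjusted p of Tead3 was 0.0471.

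**Figure D3:**
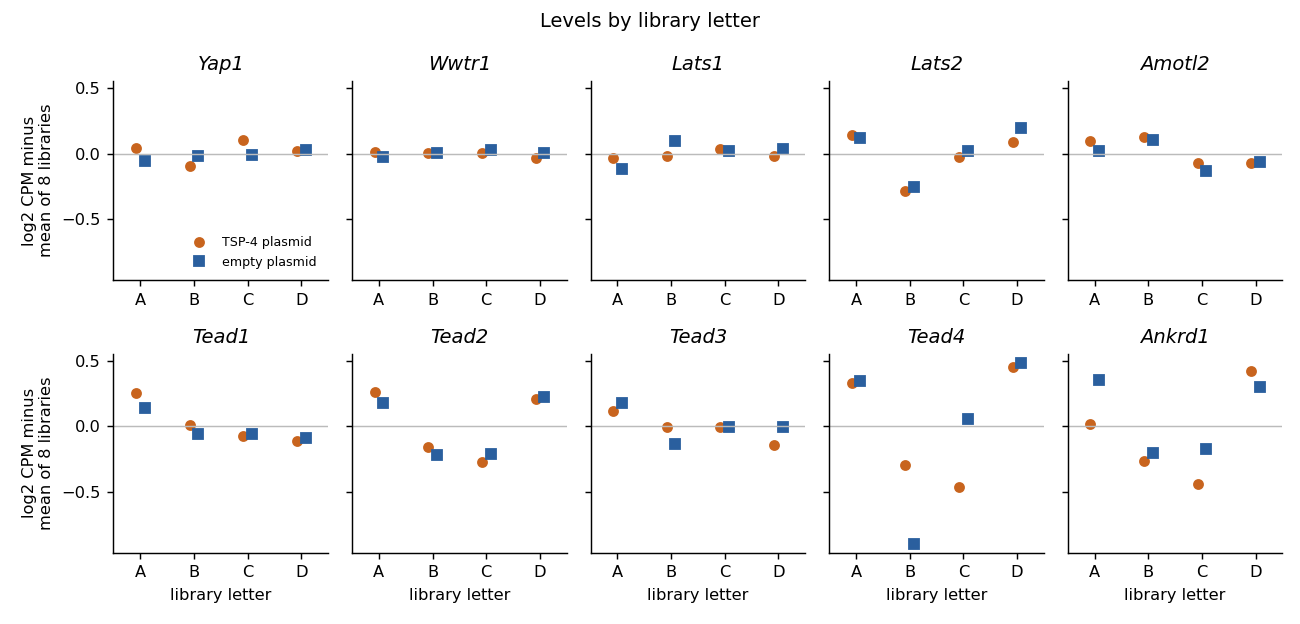
Log2 CPM of each of the 10 genes minus its mean over 8 libraries, by letter A to D. Orange circles are TSP-4 plasmid libraries and blue squares empty plasmid libraries, 1 of each per letter. The paired symbols lie close together for Tead2 and Lats2. Letters A and D stand above B and C for Tead2, Tead4, Lats2 and Ankrd1, and Wwtr1 is flat.

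Over the 97 pathway genes tested, 50 were called between letters. The share was 77.3% (17 of 22) of the YAP/TAZ targets, 75% (9 of 12) of the MRTF and SRF targets and 65% (13 of 20) of the membrane and junction regulators. It was 75% of the TEAD factors (3 of 4) and 50% of the ankyrin repeat family (1 of 2). It was 14.3% (2 of 14) of the STRIPAK genes, 20% (2 of 10) of the cofactors, 30% (3 of 10) of the MAP4K and TAO kinases and 42.9% (3 of 7) of the kinase cassette. Target genes thus exceeded the background share and STRIPAK genes fell below it, as a description of these lists. The lists hold the 10 members and overlap, so their shares are not separate observations. Amotl2, Lats2 and Ankrd1, called above, each count among the targets and on another list. Of the 17 targets called, 8 were highest in letter A, 1 in B, 2 in C and 6 in D.

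**Figure D4:**
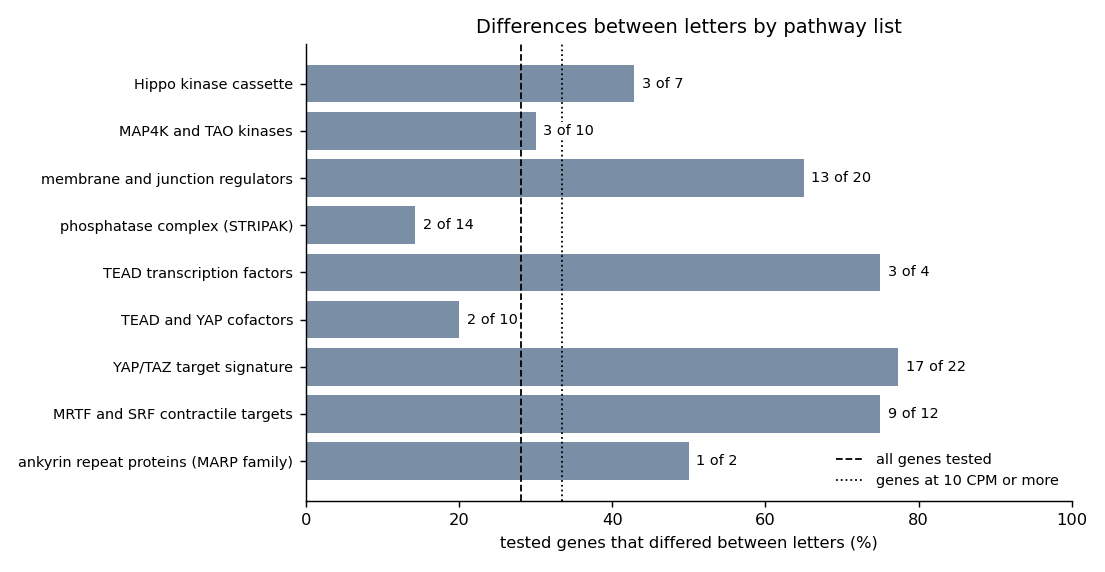
Share of tested genes in each of 9 pathway lists that differed between letters (edgeR, adjusted p under 0.05), with the counts beside the bars. The dashed line is the share of all genes tested, 28.1%, and the dotted line that of genes at 10 CPM or more, 33.4%. The YAP/TAZ targets reach 77.3% and the STRIPAK genes 14.3%.

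Within the targets, Crim1, a transmembrane protein that binds growth factors, averaged 566, 403, 414 and 386 CPM in letters A to D (edgeR adjusted p 4.2e-06). Gadd45a, a stress response gene, ran the other way at 18.0, 30.0, 35.7 and 29.7 CPM (edgeR adjusted p 3.7e-05). Cyr61, a matricellular relative of Ctgf, averaged 1049, 778, 722 and 923 CPM (edgeR adjusted p 0.0148), high in A and D like Ankrd1. Ctgf averaged 2646, 2039, 2051 and 2490 CPM and was not called (edgeR adjusted p 0.0623).

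Among regulators, Amot, the angiomotin that gives its family its name, averaged 75.5, 42.7, 47.4 and 76.7 CPM (edgeR adjusted p 9.3e-07). Wwc1, the KIBRA scaffold that brings MST and LATS together, averaged 43.8, 23.7, 24.4 and 34.1 CPM (edgeR adjusted p 6.1e-06), and its relative Wwc2 averaged 303, 215, 219 and 246 CPM (edgeR adjusted p 1.5e-05). All 3 were higher in A and D than in B and C. Stk4 averaged 95.4, 72.9, 79.7 and 95.1 CPM (edgeR adjusted p 0.000353), again higher in A and D. Map4k4 ran otherwise, at 528, 677, 797 and 754 CPM (edgeR adjusted p 1.5e-05), lowest in A.

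Runx1, a transcription factor that partners with YAP, averaged 26.8, 47.2, 54.9 and 29.2 CPM (edgeR adjusted p 5.5e-07) and so was low where Ankrd1 was high. Vgll3 averaged 627, 526, 517 and 529 CPM (edgeR adjusted p 0.00607), high in A like Tead1. Acta2 averaged 1613, 821, 936 and 807 CPM (edgeR adjusted p 8.6e-08), and the focal adhesion gene Vcl 585, 360.1, 391 and 408 CPM (edgeR adjusted p 1.5e-06), both highest in A.

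Markers of other cells also differed between letters. Summed macrophage markers stood at 317, 792, 1803 and 791 CPM in the TSP-4 group and at 348, 1065, 1456 and 656 CPM in controls, lowest in A and highest in C, with 10 of 11 called. Lyz2 ran from 174 to 1020 CPM and Adgre1 from 20.7 to 126 CPM. Summed epicardial and mesothelial markers stood at 1112, 627, 678 and 951 CPM and at 1104, 569, 647 and 916 CPM, with 6 of 8 tested called. The sums were high in A and D as Ankrd1, Tead2, Tead4 and Lats2 were. Lrrn4 ran from 245 to 442 CPM and Upk3b from 156 to 335 CPM. Upk3b, Upk1b, Lrrn4, Krt18 and Krt19 were higher in A and D than in B and C, and Tbx18, Msln and Wt1 were not. Tbx18 averaged 124, 80.4, 67.0 and 72.9 CPM in letters A to D, and Msln 29.3, 8.66, 26.9 and 25.7 CPM. Proliferation markers summed to 216, 316, 274 and 208 CPM and to 231, 352, 274 and 217 CPM, highest in B, with 8 of 8 called. Fibroblast markers summed to 13033 to 18661 CPM, with 8 of 10 called. Dcn averaged 134, 532, 366 and 167 CPM in letters A to D and Pdgfra 42.8, 96.1, 84.6 and 46.1 CPM. Both were lower in A and D than in B and C, as were Lum, Tcf21, Ddr2 and Postn. Col1a1, Col1a2, Col3a1 and Vim did not follow that order. Endothelial markers summed to 51.0 to 85.5 CPM, with 5 of 8 called, and Emcn, an endothelial sialomucin, averaged 28.6, 9.40, 16.9 and 21.1 CPM in letters A to D. Pericyte and smooth muscle markers summed to 45.5 to 76.8 CPM, with 1 of 6 tested called, Mcam at 16.8, 5.57, 7.74 and 11.7 CPM. Both Emcn and Mcam were higher in A and D than in B and C. None of the other tested genes on these lists was. Cdh5 averaged 16.4, 12.3, 19.3 and 16.5 CPM in letters A to D, and Notch3 25.2, 43.6, 36.2 and 21.4 CPM. Schwann cell markers summed to 4.69 to 9.43 CPM, with 1 of 3 tested called. Of the cardiomyocyte markers 1 of 2 tested was called, Tnnt2 at 16.3, 11.8, 14.2 and 12.0 CPM in letters A to D. The part of these cells, or of cell state, in the letter differences of the 10 genes was not tested.

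Likeness of pattern was read as Pearson's r of log2 CPM over the 8 libraries, with no test, since libraries of 1 letter move together. Ankrd1 had r = 0.879 with Tead2, 0.812 with Tead4 and 0.682 with Lats2, and r = 0.102 with Tead1, -0.127 with Yap1 and -0.67 with Wwtr1. Among the 9323 other genes with a mean of at least 10 CPM, those most like Ankrd1 were Fbxo17 (0.988), Amacr (0.986) and Cct7 (0.984). Those most like Yap1 were Brms1 (0.921), Pramef8 (0.915) and Nub1 (0.911), where the SD of Yap1 itself was only 0.061 on the log2 scale.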

How the data were processed

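Poly(A) RNA of 8 libraries was made into NEBNext Ultra libraries, per the labels. Tools in the submitters' processing notes are HTSeq 0.6.1, Cufflinks 2.1.1, TopHat2 2.0 and CASAVA; builds are GRCm38.p6 and mm10. The sources used here give no strand setting or annotation release. Counts were used as deposited, whole-number read counts per gene. The deposited FPKM values equal count over gene length times 1 constant per library, so they hold no further data and served to compare levels between genes.

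Tests ran in R 4.3.3 with edgeR 4.0.16, its robust quasi-likelihood fit, TMM factors, the expression filter at a minimum count of 10 and Benjamini-Hochberg adjustment at 0.05 over all 14723 genes. CPM uses TMM-scaled totals. DESeq2 1.42.0, limma 3.58.1 (voom), other scaling, no filter, a replicate block and left-out libraries were alternatives. Simulated counts served to test the scripts, and there both the plasmid and the letter test made more false calls than the nominal share, the letter test the more. Ratios were tested by exact permutation, with an exact sign-flip test within letters as an alternative.

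The members and gene lists were chosen with earlier results of these data known. Named genes follow a rule. It takes the 10 members, Thbs4, and per list up to 3 genes with the smallest p and 2 with the highest CPM. It also takes the 3 genes most like Yap1 and Ankrd1, and the text prints part of these genes. Cyr61, Igfbp3, Dock5, Emcn, Mcam, Gm20430, 2310014F06Rik, Cd37, Taz and the fibroblast markers other than Col1a1 and Vim were added for context after their values were seen. So were Upk1b, Tbx18, Msln, Wt1, Krt18 and Krt19. All list entries matched by symbol.

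Both groups carry the letters A to D. Across 14722 genes, deviations from group means had r of 0.508 to 0.651 for libraries of 1 letter and -0.57 to 0.323 for others. With a limit of 0.1 the letters therefore count as pairs, on the data's evidence and not the labels'. The main fit between plasmids leaves these pairs out, and the replicate block is the fit that uses them. No libraries were near-identical.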

Additional observations from a re-analysis of the deposited data

Results flagged for a closer look

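In 3 of 26 values examined, 1 library lay far from the other 3 of its group, by the gap to its nearest neighbour over the group's range. Chance gives this in about 5% of groups. Tead1 in empty plasmid library A had a gap share of 0.872, at 658 CPM against 562 to 574 CPM in the others. The Wwtr1 to Yap1 FPKM ratio in empty plasmid library D had a gap share of 0.839, at 2.03 against 2.091 to 2.103. The total of TSP-4 plasmid library A had a gap share of 0.897, at 22530947 counts against 17123735 to 17681837.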

How the results depend on the processing

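No member passed the threshold between plasmids in any of 19 fits. Their log2 fold changes ran from -0.31 to 0.13, and the smallest adjusted p was 0.286, for Ankrd1 with the replicate block and without letter D (unadjusted p 0.00229 in edgeR). The replicate block itself gave Ankrd1 -0.13 (95% interval -0.32 to 0.05). Genes called between plasmids numbered 2 with the replicate block, Thbs4 and Ybx3, in place of 1, and 5, 4 and 2 with the block and without letter A, B or C. The block changed no other call of the members or the lists between plasmids. Of 180 alternative values of the members' fold changes, 25 changed sign. With the replicate block these were Wwtr1 without C (0.0016) and D (0.012), Tead2 without A (-0.0029), Tead3 without D (0.024), Tead4 without C (0.13), and Lats1 without B (0.013) and D (0.0016). Leaving out 1 library gave ranges of -0.015 to 0.0045 for Wwtr1, -0.040 to 0.098 for Tead1, -0.065 to 0.11 for Tead2, -0.065 to 0.041 for Tead3, -0.24 to 0.13 for Tead4, -0.060 to 0.0090 for Lats1, -0.12 to 0.040 for Lats2, -0.0010 to 0.078 for Amotl2, 0.012 to 0.071 for Yap1 and -0.31 to -0.0010 for Ankrd1. For the Lats2 to Lats1 log2 ratio that range was -0.142 to 0.0648, and for Wwtr1 to Yap1 -0.0801 to -0.0134. Genes called between letters numbered 2716 with DESeq2, which called the same 6 members, and 2961 to 3499 without 1 letter. Members called between letters numbered 4 to 6 without 1 letter. The median of the YAP/TAZ targets was 0.05 without empty plasmid library A. The cause of these shifts was not tested. Tead4 has the lowest counts, 55 to 168 per library.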
